A study of Homo sapiens with 118 samples.

Results

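The genes described here code for proteins that coat the lipid droplet, the organelle in which a cell stores neutral fat, and for enzymes that make or break down its triglyceride. They were measured in HepaRG, an established human liver cell line used in its differentiated state, after 72 h of daily renewed exposure to a histone deacetylase inhibitor. The 10 genes were the perilipins PLIN1, PLIN2, PLIN3, PLIN4 and PLIN5, the CIDE proteins CIDEB and CIDEC, the acyltransferases DGAT1 and DGAT2, and the lipase PNPLA2. They were chosen by symbol among the 19470 gene symbols of the probe panel, and each had exactly 1 probe. The 8 inhibitors were given at 5 concentrations, C1 being the lowest and C5 the highest. In µM, apicidin ran from 0.0417 to 0.86, mocetinostat from 0.177 to 3.9, panobinostat from 0.00147 to 0.084, and scriptaid from 4.94 to 94.5. Tacedinaline ran from 1.14 to 44, trichostatin A from 0.0188 to 1.52, and vorinostat from 0.405 to 23.5. For valproic acid, which is known to cause liver steatosis, the sample labels give 100.5 to 3038 and the treatment protocol lists lower ones under the same µM, so its true unit is unsettled. Of the 40 groups, 38 held 3 libraries, 1 from each of 3 HepaRG batches, and panobinostat C3 and trichostatin A C4 held 2. The p-values therefore measure the spread between batches of 1 cell line. Libraries of solvent-treated cells were not used here, so C1 of the same chemical was the reference, and all groups had received an inhibitor. Concentrations differ between chemicals, so values of different chemicals stand side by side and are not matched by dose.

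Lipid droplets grow when fatty acids are activated, joined to glycerol and acylated a last time by DGAT1 or DGAT2. Perilipins bind the droplet surface and control the access of lipases such as PNPLA2 (adipose triglyceride lipase), and CIDE proteins promote transfer of lipid between touching droplets. In hepatocytes CIDEB also takes part in loading lipid onto very-low-density lipoprotein, PLIN2 is the main perilipin, and CIDEC is known to rise in steatosis. PLIN1 is the perilipin of the adipocyte. Vorinostat, trichostatin A, panobinostat and scriptaid carry a hydroxamic acid, mocetinostat and tacedinaline are benzamides, apicidin is a cyclic tetrapeptide, and valproic acid is a short branched fatty acid.

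Library totals lay between 1061359 and 5250260 counts, and those of vorinostat were between 1785295 and 4134455 at C1 and between 1061359 and 1879287 at C5. Levels are given as CPM, the count scaled to a common library size. Across all features, the correlation of a library with the others of its group had a median of 0.953. It was 0.82 for scriptaid C4 replicate 3, 0.852 for mocetinostat C2 replicate 3 and 0.882 for trichostatin A C1 replicate 3. Hepatocyte markers were high in these cells. At C5, 58 of 72 results for such probes fell against C1 and none rose. Of all features, between 6.22% and 24.9% fell at C5 in the chemicals other than trichostatin A. Their summed level lay between 31940 and 55950 CPM at C1 and between 2774 and 26340 CPM at C5 in the chemicals other than trichostatin A. By trend, 11 of 33 results for cholangiocyte markers rose and none fell, and 6 of 26 for mesenchymal markers rose and 14 fell. The cholangiocyte rises were 5 from SPP1, 5 from SOX9 and 1 from KRT19, with 1 of its 2 probes. EPCAM was filtered out in all chemicals, and KRT7 was tested in 1 only and not called. Of the adipocyte markers, ADIPOQ, LEP, CFD and LIPE were filtered out as too low in all chemicals. The others gave 10 rises among 16 results and no fall, 7 from FABP4 and 3 from LPL, and the summed level went from between 10.4 and 32.7 CPM at C1 to between 38.5 and 338 CPM at C5 in the chemicals other than trichostatin A. In lysates of whole wells, fewer cells of a type and less RNA per cell cannot be told apart.

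Of the 10 genes, 8 were tested in every chemical. PLIN1 never exceeded 9 counts and was above 3 counts in 4 of 118 libraries. PNPLA2 never exceeded 13 counts and was above 3 counts in 34 libraries. Both failed the filter in every chemical, so nothing is said of their change. A feature was called when its Benjamini-Hochberg adjusted p, from edgeR's quasi-likelihood test over all features of a chemical, was under 0.05 and its fold change at least 1.5.

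The trend is the slope on log2 concentration, given as the log2 change it predicts between C1 and C5. By trend, falls outnumbered rises among the 8 genes in all chemicals but scriptaid, trichostatin A and valproic acid. In apicidin 4 of 8 fell and none rose, where 17.2% of all 12706 features tested fell and 17.2% rose. Mocetinostat lowered 6 of 8 (17.7% of all features fell and 17.9% rose), panobinostat 3 (9.34% and 8.05%), and tacedinaline 4 (21.5%), in which PLIN3 alone rose (21.8% of features rose). With vorinostat 4 fell (23.0%) and DGAT2 alone rose (24.4%). In scriptaid CIDEB alone fell (6.18%) and PLIN2 alone rose (6.83%), and the same 2 genes moved the same ways in valproic acid (7.73% fell and 7.16% rose). Trichostatin A gave no call among the 8 genes by edgeR or DESeq2, with 2 of them under an unadjusted p of 0.05, where 0.0616% of its 12993 features were called. With so few features called, the absence of calls in trichostatin A is no result about these genes.

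The median trend change of the 8 genes was -2.44 in mocetinostat, -1.11 in apicidin, -0.998 in tacedinaline, -0.96 in vorinostat and -0.59 in panobinostat. It was -0.44 in trichostatin A, -0.08 in scriptaid and -0.04 in valproic acid. The median over all features lay between -0.004 and 0.104 in the 8 chemicals.

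**Figure D1:**
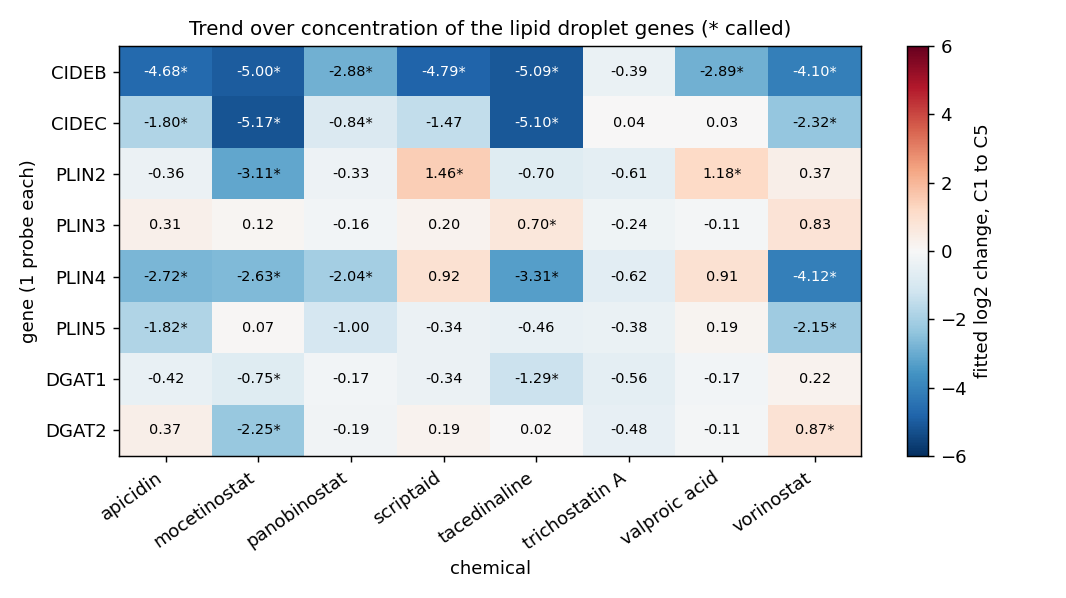
Log2 change between C1 and C5 fitted by trend for the 8 tested lipid droplet genes (rows) in the 8 chemicals (columns), with an asterisk where the change was called. CIDEB is negative in all 8 chemicals and called in 7, while PLIN2 is called rising in scriptaid and valproic acid and falling in mocetinostat.

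At C5 against C1, 3 genes fell in apicidin (15.0% of all features), 6 in mocetinostat (15.7%), 3 in panobinostat (9.47%) and 2 in scriptaid (17.0%). Tacedinaline lowered 5 (20.1%), valproic acid 1 (6.22%) and vorinostat 3 (24.9%). PLIN2 rose in scriptaid (12.8% of features rose) and valproic acid (4.84%), and DGAT2 rose in vorinostat (22.7%). In trichostatin A none of the 8 was called by edgeR or DESeq2 (0.0154% of features, 2 in number), and 2 genes, DGAT1 and PLIN2, lay under an unadjusted p of 0.05. Without trichostatin A C1 replicate 3, CIDEB and DGAT2 were called falling there, in a run whose share of all features called is not given here. That replicate held the lowest C1 level of both genes, so leaving it out raised the reference.

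CIDEB fell in 7 of 8 chemicals, by trend and at C5. The RefSeq promoter table (GRCh38.p14) lists a pair of starts for it, both on the minus strand of chromosome 14. The 250 bases before the downstream start, chr14:24307978-24308227, are shown because they hold a match to letters of a site for HNF4, a hepatocyte transcription factor, besides a CCAAT box. Capitals mark the CCAAT box and, read on the other strand, the HNF4 letters CAAAGTCCA.
CIDEB: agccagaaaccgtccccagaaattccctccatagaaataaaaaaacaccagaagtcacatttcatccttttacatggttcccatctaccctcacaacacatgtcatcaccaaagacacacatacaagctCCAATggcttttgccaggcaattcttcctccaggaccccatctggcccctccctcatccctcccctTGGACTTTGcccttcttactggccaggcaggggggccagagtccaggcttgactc
On either strand, CAAAGTCCA occurs in 0.325% and CCAAT in 32.0% of 35116 promoter windows of this length. The match describes these letters only, and binding was not measured.

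In scriptaid, CIDEB stood at 39.6, 32.2 and 28.1 CPM in the C1 libraries and at 0.85, 0 and 0 CPM at C5. The groups do not overlap, and only 2 counts were left at C5. The ratio of C1 to C5, with its exact 95% counting interval, was 132 (36.2 to 1091), and the fitted log2 change was -6.77 ± 0.81 (SE, adjusted p = 6.68e-06). In apicidin it fell from 17.7, 17.2 and 15.9 CPM to 0, 0.489 and 0.248 CPM, a ratio of 67.6 (22.8 to 331). In tacedinaline it fell from 11.7, 16.5 and 15.7 CPM to 0, 0.69 and 0 CPM, a ratio of 56.7 (15.4 to 473). These intervals cover counting error only.

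Valproic acid also lowered CIDEB. Its C1 libraries held 26.3, 18.2 and 24.4 CPM and its C5 libraries 2.75, 3.81 and 2.26 CPM, again without overlap. The log2 change was -2.95 ± 0.47 (SE, adjusted p = 0.000148), lower in 3 of 3 batches. The level was 20.7, 12.3 and 13.2 CPM at C2, 8.18, 5.02 and 9.68 CPM at C3 and 6.42, 1.02 and 3.73 CPM at C4, and calls against C1 began at C4.

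Panobinostat took CIDEB from 35.6, 31.6 and 22.9 CPM to 6.14, 2.65 and 4.13 CPM (-2.82 ± 0.36). In mocetinostat it went from 26.8, 25.2 and 13.8 CPM to 0.261, 0 and 1.22 CPM (-5.39 ± 0.94). Vorinostat was not monotone: CIDEB stood at 12.7, 22.6 and 8.4 CPM at C1, at 0, 0.328 and 0 CPM at C4 and at 2.46, 3.33 and 0 CPM at C5. The C4 libraries held 1 count together, a ratio of C1 to C4 of 122 (21.5 to 4836), and the log2 change at C5 was -2.78 ± 0.67.

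CIDEB was called falling at C3 and at every concentration above it in apicidin (8.39% of features fell at C3 and 11.2% at C4), mocetinostat (5.14% and 11.6%) and tacedinaline (6.46% and 16.4%). It was called from C4 in panobinostat (1.4% of features fell at C4), scriptaid (2.67%), valproic acid (6.35%) and vorinostat (16.7%). Without 1 of the batches the C3 call was lost in mocetinostat and tacedinaline and the C4 call in mocetinostat, panobinostat and scriptaid. All 7 trend calls and all 7 C5 calls of CIDEB held under each alternative run. In trichostatin A the C1 libraries held 40.4, 38.2 and 7.18 CPM, the last being the replicate that stood apart, and the C5 libraries 17.2, 16.9 and 24.6 CPM. With all libraries the change there was -0.54 ± 0.40 (adjusted p = 0.709), and without that replicate it was called (-1.0 ± 0.24, adjusted p = 0.0494). The mean of the summed hepatocyte markers went from 37340 to 6854 CPM in scriptaid and from 42880 to 16970 CPM in valproic acid, and their part in the fall of CIDEB was not tested.

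CIDEC, whose product promotes fusion into large droplets, fell in 6 chemicals at C5. Its upstream RefSeq start lies on the minus strand of chromosome 3, and the 250 bases before it, chr3:9880254-9880503, are shown for comparison with CIDEB. Capitals mark a GC box, GGGCGG, which 42.6% of windows hold on either strand, and no other motif searched occurs in it.
CIDEC: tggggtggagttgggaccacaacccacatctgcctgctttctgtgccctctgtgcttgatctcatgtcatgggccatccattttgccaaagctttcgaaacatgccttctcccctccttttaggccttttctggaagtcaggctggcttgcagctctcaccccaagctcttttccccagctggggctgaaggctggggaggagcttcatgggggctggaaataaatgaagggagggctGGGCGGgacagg

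With tacedinaline, CIDEC held 157, 206 and 150 CPM at C1, still 122, 124 and 114 CPM at C3, and then 6.75, 5.31 and 7.97 CPM at C4. C5 libraries held 0.999, 4.14 and 4.54 CPM, a change from C1 of -5.59 ± 0.28 (SE, adjusted p = 1.15e-20). Most of the drop lay between C3 and C4. The other benzamide, mocetinostat, took it from 219, 220 and 265 CPM to 4.17, 6.19 and 3.06 CPM (-5.62 ± 0.31).

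Scriptaid left CIDEC at 196, 128 and 75.7 CPM at C4 and lowered it to 21.2, 20.7 and 5.32 CPM at C5, from 164, 172 and 150 CPM at C1. That fall was called at C5 (-3.29 ± 0.39), but the trend was not (adjusted p = 0.195), although a slope on the rank of the concentration was (-2.16). Vorinostat also dropped late, from 119, 141 and 99.9 CPM at C3 to 8.18, 6.66 and 15.2 CPM at C5 (-3.51 ± 0.27, C5 against C3, 21.6% of features falling).

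The fall in apicidin went from 139, 141 and 127 CPM to 20.5, 31.8 and 47.4 CPM (-2.02 ± 0.27). Panobinostat went from 140, 139 and 169 CPM to 89.6, 79.8 and 53.6 CPM (-1.02 ± 0.19), the smallest called fall of CIDEC at C5, and this call and its trend call were lost without replicate 3.

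In valproic acid, CIDEC stood at 86.5, 129 and 101 CPM at C1 and at 99.7, 119 and 113 CPM at C5. The groups overlap, and the log2 change was 0.07 ± 0.18 (SE, adjusted p = 0.867). Trichostatin A gave -0.03 ± 0.19, from 135, 136 and 118 CPM to 93.2, 145 and 138 CPM.

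**Figure D2:**
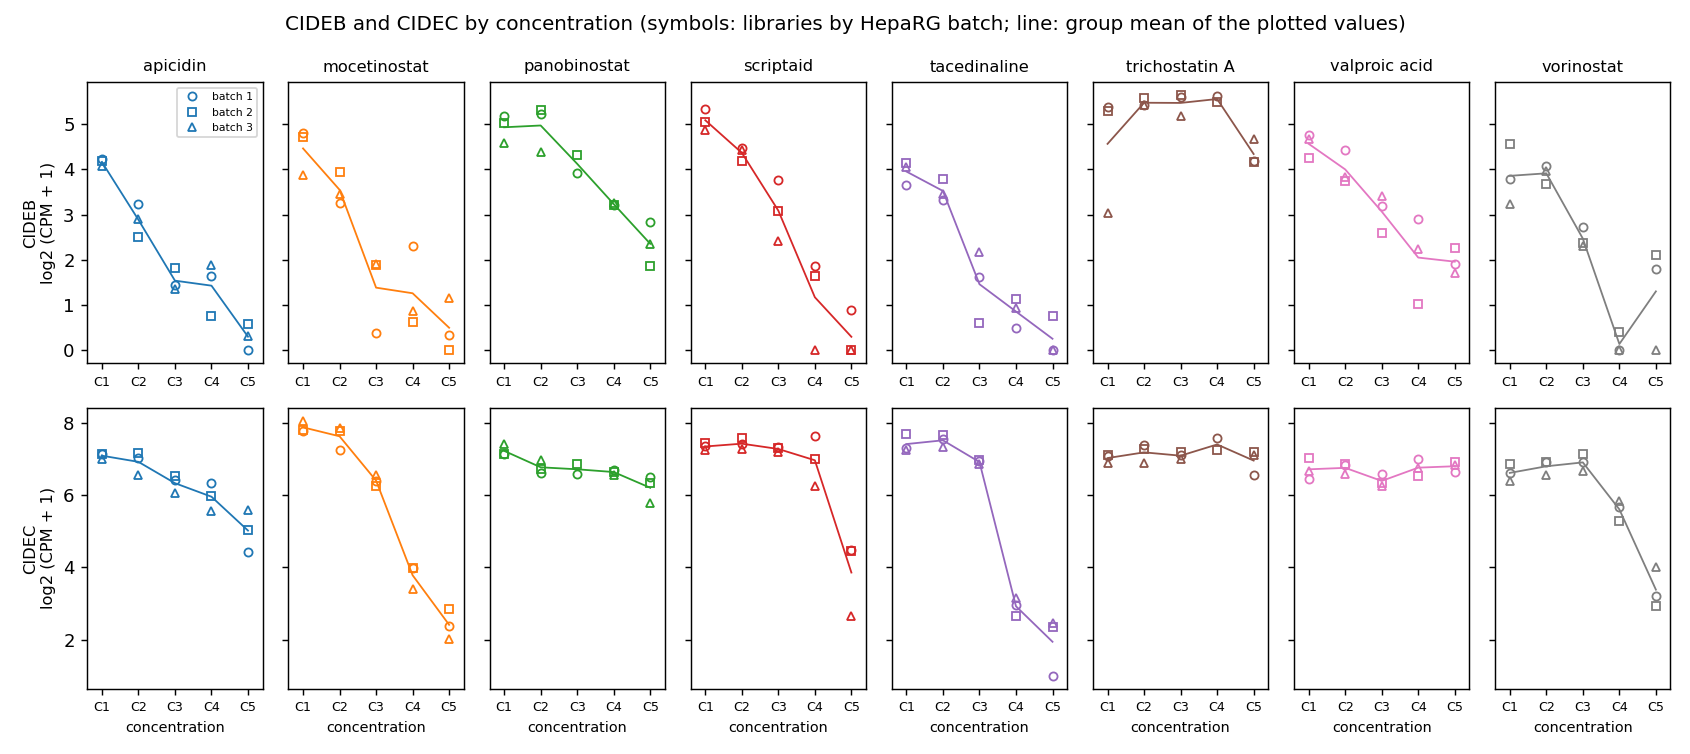
Level of CIDEB (upper row) and CIDEC (lower row) as log2 (CPM + 1) at C1 to C5 of each chemical, where symbols are libraries marked by HepaRG batch and lines join group means of the plotted values. In valproic acid CIDEB declines from C1 to C5 while CIDEC stays level, and in tacedinaline CIDEC drops between C3 and C4.

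PLIN2 coats droplets in most cell types and is stabilised by the lipid it binds. It was called rising in some chemicals and falling in others. The 250 bases before its RefSeq start lie on the minus strand of chromosome 9, chr9:19127493-19127742. They are shown because, alone among the genes with an entry, they match the exact letters searched for a TATA box and an E-box. Variants of these letters were not searched, such as TATAAG, which the PLIN4 and PLIN5 windows hold. Capitals mark, from 5′ to 3′, a GC box on the other strand, the E-box CACGTG, a GC box, and the TATA box TATAAA read on the other strand.
PLIN2: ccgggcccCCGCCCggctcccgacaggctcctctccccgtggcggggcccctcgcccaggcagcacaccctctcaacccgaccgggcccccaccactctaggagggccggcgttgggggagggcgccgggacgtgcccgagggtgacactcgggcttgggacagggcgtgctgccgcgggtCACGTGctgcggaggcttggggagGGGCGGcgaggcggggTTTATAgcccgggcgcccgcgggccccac
TATAAA occurs in 10.7% and CACGTG in 6.34% of all windows, on either strand. A nuclear receptor half-site, AGGTCA, in 12.1% of windows, was found for PNPLA2 only. RefSeq promoter entries matched 8 of the 10 genes, all but DGAT1 and DGAT2.

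Valproic acid raised PLIN2. The C1 libraries held 73.5, 58.2 and 86.9 CPM, the C4 libraries 152, 146 and 204 CPM, and the C5 libraries 126, 159 and 156 CPM. All libraries at C4 and C5 lay above all libraries at C1. The log2 change was 1.19 ± 0.19 at C4 (SE, adjusted p = 0.000173, 5.51% of features rising) and 1.01 ± 0.19 at C5 (adjusted p = 0.000985). C4 and C5 combined were 2.14-fold above C1 (log2 1.10 ± 0.17, adjusted p = 9.27e-05, 5.57% of features rising), and these calls held under each alternative run.

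Scriptaid raised PLIN2 at C5 only. Its libraries held 41.8, 43.2 and 29.3 CPM at C1 and 43.3, 37.9 and 42.5 CPM at C4. At C5 they held 165, 144 and 137 CPM, a log2 change of 2.01 ± 0.24 (SE, adjusted p = 6.79e-06). The trend of 1.46 ± 0.42 was called with all libraries but lost when any 1 of the 3 batches was left out.

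Tacedinaline moved PLIN2 both ways. It stood at 74.2, 64.6 and 59 CPM at C1 and rose to 134, 120 and 83 CPM at C2 and 157, 143 and 151 CPM at C3. At C4 it was at 69.1, 74.9 and 61.3 CPM, and at C5 it was below C1 in all libraries, at 34, 28.3 and 35.9 CPM. Against C1 the log2 change was 1.21 ± 0.19 at C3 (SE, adjusted p = 6.56e-06, 5.44% of features rising) and -0.94 ± 0.20 at C5 (adjusted p = 0.000217). The change from C3 to C5 was -2.16 ± 0.20 (13.2% of features fell), and the trend over all concentrations was not called (adjusted p = 0.21). The rise at C2 was called with all libraries (0.78 ± 0.19, 0.297% of features rising) but not when any 1 batch was left out or with another scaling.

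Mocetinostat gave the largest called fall of PLIN2, from 349, 211 and 385 CPM at C1 to 32.3, 20.9 and 37.6 CPM at C5 (-3.31 ± 0.32, adjusted p = 1.07e-06). Its C1 level was unusual: the lowest of its C1 libraries, at 211.4 CPM, lay above the highest C1 library of every other chemical, at 99.6 CPM. The same was true of CIDEC, with 218.8 against 206.2 CPM, and of DGAT2, with 79.9 against 60.5 CPM. In apicidin, panobinostat, trichostatin A and vorinostat no change of PLIN2 from C1 was called at any concentration.

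**Figure D3:**
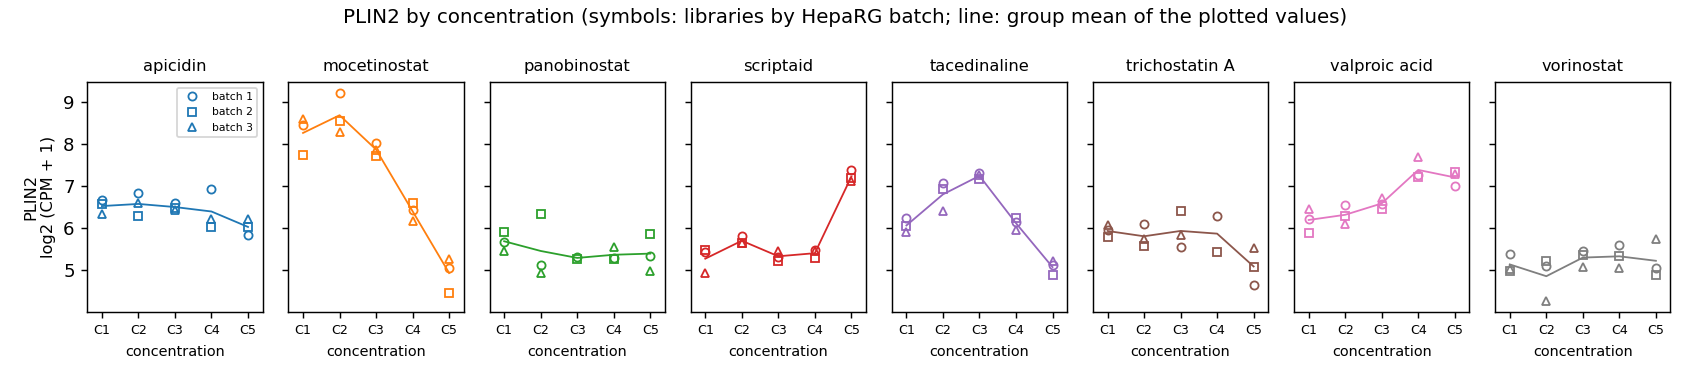
Level of PLIN2 as log2 (CPM + 1) at C1 to C5 of each chemical, where symbols are libraries marked by HepaRG batch and lines join group means of the plotted values. Valproic acid lies higher at C4 and C5 than at C1, scriptaid rises at C5, tacedinaline peaks at C3, and mocetinostat starts high and falls.

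PLIN4, another droplet coat protein, fell by trend in 5 chemicals. It was low throughout, with C1 libraries between 2.39 and 25.4 CPM. In vorinostat it fell from 4.43, 4.77 and 11.5 CPM at C1 to no count in any C5 library. Against a floor of 3 counts per library it was at least 3.67-fold lower. In tacedinaline it went from 14.2, 10.6 and 19.9 CPM to 0, 0.345 and 1.24 CPM, with 4 counts left and a ratio with its exact 95% counting interval of 28.3 (10.8 to 106). Apicidin lowered it from 7.78, 11.1 and 7.83 CPM at C1 to 0, 0 and 0.262 CPM at C3, and it stood at 1.31, 1.47 and 1.24 CPM at C5. The fall in apicidin was called at C3 and C5 but not at C4.

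Mocetinostat lowered PLIN4 from 17.6, 19.1 and 25.4 CPM to 4.43, 4.13 and 1.22 CPM (log2 change -2.56 ± 0.49). Panobinostat lowered it from 8.67, 3.63 and 8.47 CPM to 0.838, 0 and 1.65 CPM (-3.06 ± 0.73). In apicidin the trend and C5 calls were both lost without replicate 3. In panobinostat the trend call was lost without replicate 1 or 3 and the C5 call without replicate 1. Scriptaid libraries diverged at C5, with 43.3, 43.7 and 4.35 CPM against 12, 11.2 and 9.19 CPM at C1, and no change was called (1.55 ± 0.68, adjusted p = 0.0955). A rise was called without replicate 3 of all groups (1.94), without scriptaid C4 replicate 3 alone (1.54, adjusted p = 0.0148) and without the filter on low counts (1.47).

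In valproic acid PLIN4 stood at 5.78, 5.15 and 9.66 CPM at C1 and 14.4, 9.52 and 22.3 CPM at C5. The groups overlap slightly, each batch was higher at C5, and the change of 1.15 ± 0.39 missed the threshold (adjusted p = 0.0568). With the HepaRG batch as a block the fitted changes were 1.15 at C5 and 0.91 by trend, and both were called, as they were by DESeq2.

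PLIN5, which links droplets to mitochondria, stood between 2.94 and 16.5 CPM in the C1 libraries. It was called falling by trend in apicidin (-1.82 ± 0.65) and vorinostat (-2.15 ± 0.73). The apicidin call was lost without replicate 2 or 3 and the vorinostat call without replicate 1 or 2. At C5 in vorinostat the change of -1.82 was not called, but it was with the batch block (-2.0, adjusted p = 0.0422), by DESeq2, with library scaling set over all libraries, without the filter and without replicate 3 (-3.42). In the other 6 chemicals no trend of PLIN5 was called. PLIN3, a perilipin that moves between cytosol and droplets, stood between 11.6 and 27.8 CPM in the C1 libraries. It was called only in tacedinaline, where the trend rose by 0.70 ± 0.26 (adjusted p = 0.03), and that call was lost without replicate 1 or 2 and without the filter on low counts.

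DGAT1, which esterifies mainly fatty acids taken up from outside, fell with both benzamides. In tacedinaline it went from 92.5, 95 and 81.1 CPM at C1 through 55, 53.3 and 54.5 CPM at C3 to 30.5, 34.5 and 38.3 CPM at C5. The groups do not overlap, and the change was -1.31 ± 0.21 (SE, adjusted p = 1.45e-06). In mocetinostat it went from 90.9, 74.9 and 89.4 CPM to 40.4, 44.9 and 49.9 CPM (-0.84 ± 0.27), a call that was lost when any 1 batch was left out. In the other 6 chemicals the C5 change lay between -0.66 and -0.04 and was not called. In apicidin the C5 change of -0.58 (edgeR adjusted p = 0.0373) missed only the fold threshold of 1.5. It was called with library scaling set over all libraries (-0.59) and without the filter (-0.59). The trend in apicidin was called without replicate 3 (-0.65, against -0.42 with all libraries).

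DGAT2, which uses mainly newly made fatty acids, stood in mocetinostat at 101, 79.9 and 126 CPM at C1 and at 395, 347 and 116 CPM at C2, where the replicate that stood apart held the lowest value, and no call was made (1.58 ± 0.38, adjusted p = 0.0811). At C5 it was at 40.9, 33.5 and 47.7 CPM, a change of -1.25 ± 0.38 (adjusted p = 0.0198) that was lost without replicate 1 or 2. In vorinostat it rose from 27.1, 29.1 and 36.1 CPM to 52.4, 48 and 38.6 CPM (0.68 ± 0.25, adjusted p = 0.0249). That rise was not called without replicate 1 or 2, without the filter, or with library scaling set over all libraries. In trichostatin A the C1 libraries held 43.7, 50.5 and 3.89 CPM and the C5 libraries 19.1, 25.7 and 14.5 CPM. The change there was not called with all libraries (-0.70 ± 0.50) and was called without the C1 replicate that stood apart (-1.23 ± 0.25, adjusted p = 0.0121). PNPLA2, the lipase that begins the breakdown of stored triglyceride, reached at most 4.04 CPM in any library.

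**Figure D4:**
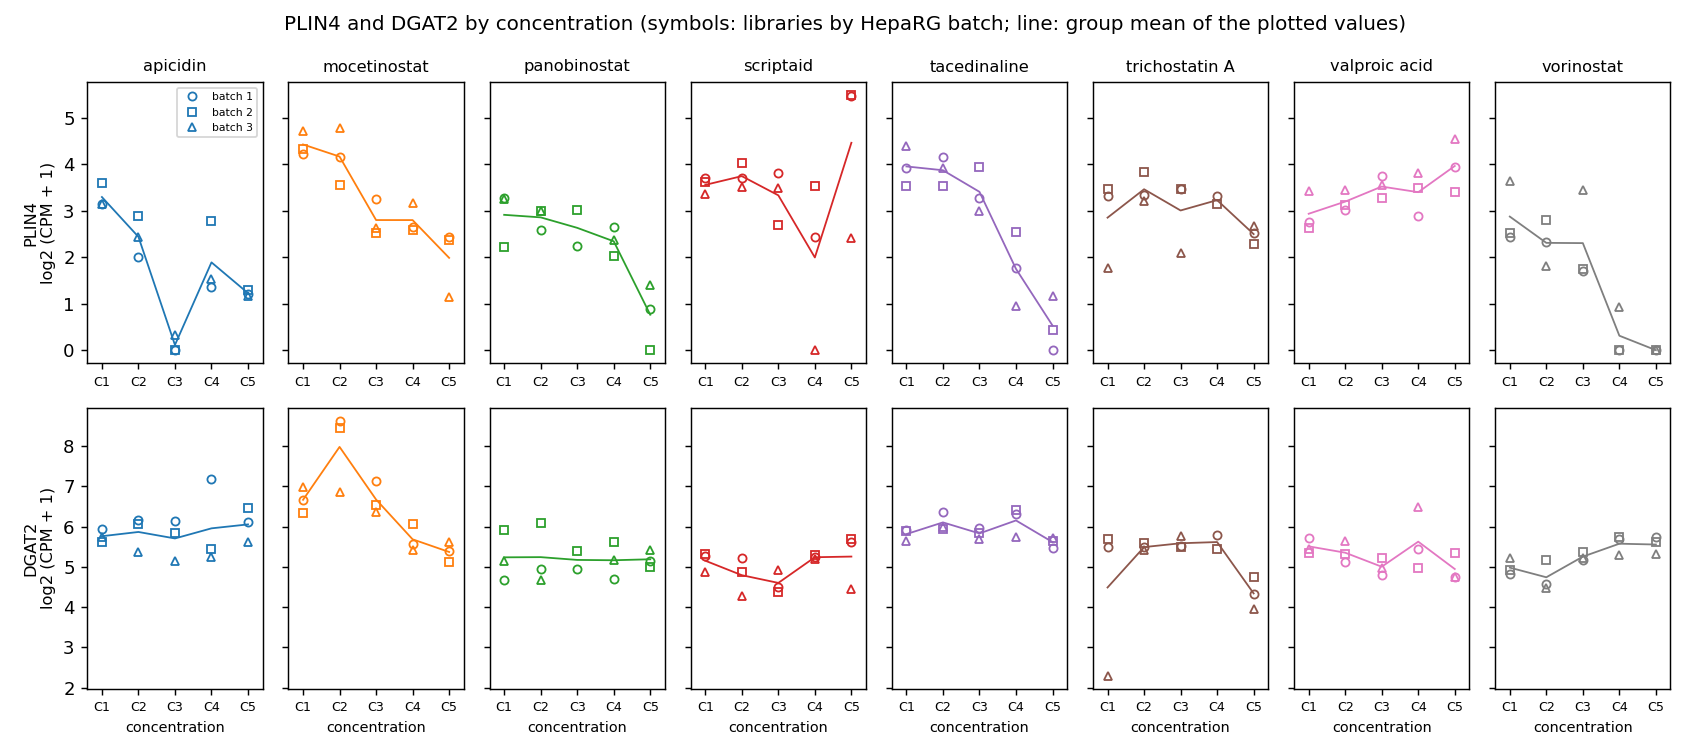
Level of PLIN4 (upper row) and DGAT2 (lower row) as log2 (CPM + 1) at C1 to C5 of each chemical, where symbols are libraries marked by HepaRG batch and lines join group means of the plotted values. PLIN4 reaches 0 in all C5 libraries of vorinostat, and DGAT2 is highest at C2 in mocetinostat in 2 of 3 libraries.

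The difference between chemicals was tested in 1 model of all 118 libraries, over 15632 features, of which 30.3% differed among the 8 chemicals in their C5 minus C1 change. PNPLA2 passed the filter in this model, making 9 genes. Of these, 4 differed: CIDEC (adjusted p = 1.06e-29), PLIN2 (7.63e-21), PLIN4 (4.44e-10) and CIDEB (5.24e-09). DGAT2 (0.0588) and DGAT1 (0.0624) missed the threshold. DGAT2 passed it with the batch block, with another scaling, without the filter, and when trichostatin A, its deviating C1 replicate or all of replicate 3 was left out. DGAT1 passed it without replicate 3. The chemicals were compared at their own highest concentrations, which differ.

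Valproic acid was set against the mean of the other 7 chemicals in the same model, where 4.86% of features changed more positively and 0.928% more negatively in valproic acid. CIDEC, PLIN2 and PLIN4 differed, all in the positive direction. The difference in log2 change was 3.07 ± 0.28 for CIDEC (SE, adjusted p = 1.60e-14), 1.56 ± 0.27 for PLIN2 (adjusted p = 1.85e-05) and 3.98 ± 0.69 for PLIN4 (adjusted p = 1.34e-05). Valproic acid shared a plate with apicidin, mocetinostat, panobinostat and trichostatin A, and within that plate the values were 2.26, 2.25 and 3.40, all called. Scriptaid lay on the other plate and so was left out of that run. Its own C5 rise of PLIN2 was 2.01, against 1.01 in valproic acid. The uncalled PLIN4 change in scriptaid, 1.55, was also above that in valproic acid. A rise of PLIN2 is thus not particular to valproic acid, and that of PLIN4 was called in neither at C5, save in alternative runs. CIDEC itself was level at C5 in valproic acid (0.07 ± 0.18) and in trichostatin A (-0.03 ± 0.19). It was called falling in the other 6 chemicals, and its difference reflects those falls. For CIDEB the difference of 1.34 ± 0.57 was not called with all chemicals (adjusted p = 0.177). Within the plate of valproic acid it was 0.73 and not called (adjusted p = 0.78). Only the run without trichostatin A called it (1.95, adjusted p = 0.024).

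Genes around the lipid droplet were read from 6 lists by trend, with results counted over all 8 chemicals. In the 7 chemicals other than trichostatin A, between 6.18% and 23.0% of all features fell and between 6.83% and 24.4% rose. In trichostatin A 0.0616% were called in either direction. In the list for export of triglyceride in lipoprotein, 19 of 23 results over the chemicals fell and none rose. The hepatocyte markers went the same way, with 55 of 72 trend results falling and none rising. MTTP, which loads triglyceride onto apolipoprotein B, and APOB itself fell in 7 chemicals each, with log2 changes between -6.26 and -0.80. In valproic acid MTTP changed by -1.35 ± 0.27 and APOB by -1.55 ± 0.16. TM6SF2, also needed for lipoprotein loading, fell in 5 chemicals.

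Of 84 results for enzymes of triglyceride synthesis, 23 fell and 7 rose. AGPAT2, an acyltransferase that makes phosphatidate, fell in 7 chemicals with log2 changes between -2.11 and -0.60. LPIN2, a phosphatidate phosphatase, fell in 5 and MOGAT2, a monoacylglycerol acyltransferase, in 4. GPAT3, which acylates glycerol phosphate, rose in 4, with changes between 0.89 and 1.58. The list's median lay between -1.32 in mocetinostat and 0.08 in trichostatin A.

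For lipolysis, 27 of 63 results fell and 7 rose. AADAC, a microsomal esterase, fell in 7 chemicals, and G0S2, an inhibitor of PNPLA2, fell in 6 with each of its 2 probes, 5 of them shared. CES1, a carboxylesterase, fell in 5, while LIPA, the lysosomal acid lipase, rose in 5. Of the other droplet proteins, 12 of 82 results fell and 11 rose, both inside the range over all features. BSCL2, the seipin that acts where droplets form at the endoplasmic reticulum, rose in 7 chemicals by between 0.84 and 2.06. METTL7A fell in 4, and HSD17B11 and HSD17B13, droplet-bound dehydrogenases, in 3 each.

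Among genes of fatty acid uptake and activation, 11 of 47 results fell and 5 rose. The acyl-CoA synthetase ACSL5 fell in 4 chemicals and ACSL3 rose in 3, while SLC27A2, ACSL1 and ACSL4 fell in 2 each and ACSL1 rose in 1. CD36, a fatty acid transporter picked out after its values were seen, rose in valproic acid by 2.92 ± 0.99 (adjusted p = 0.0422) with 1 of its 2 probes. The other probe failed the filter. The probe that rose passed the filter in 2 chemicals only and was not called in tacedinaline. It was low, with a median of 0.856 CPM over all libraries, and its highest level, 14.35 CPM, was in a C1 library. Of the regulators, 18 of 67 results fell and 6 rose. PPARA, a receptor that drives fatty acid oxidation, fell in 5 with 1 of its 2 probes and in 3 with the other. CEBPA, NR1H3 and MLXIPL fell in 3 each, and PPARD rose in 4.

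**Figure D5:**
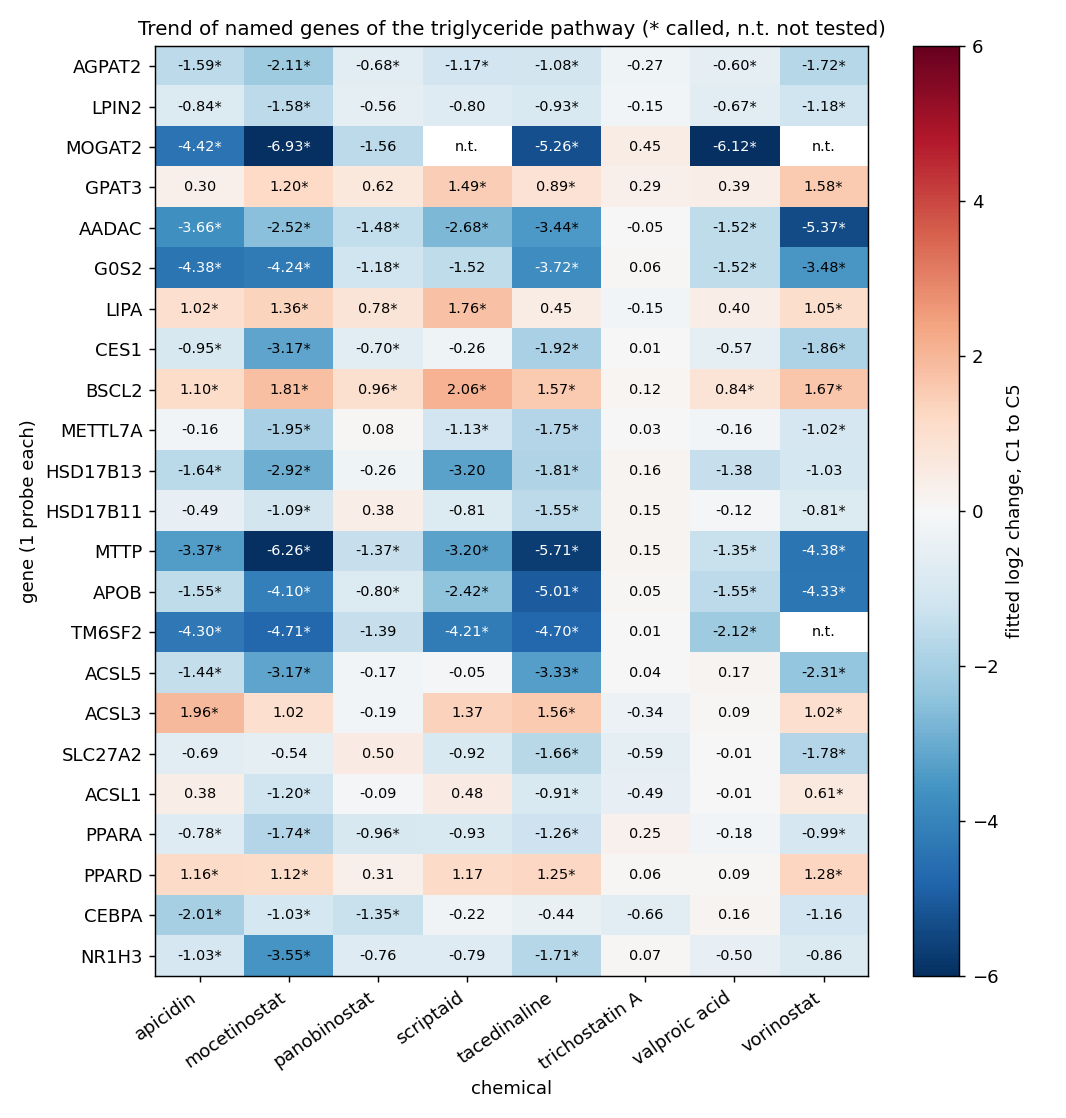
Log2 change between C1 and C5 fitted by trend for the named genes of 6 lists around triglyceride turnover (rows, 1 probe each) in the 8 chemicals (columns), with an asterisk where the change was called and n.t. where the probe failed the filter. MTTP, APOB, AGPAT2 and AADAC are called falling and BSCL2 rising in all chemicals but trichostatin A.

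The features closest in pattern to each gene were sought by Pearson's r over the 40 group means of log2 CPM, centred within each chemical, among 12264 other features. The points share libraries and chemicals, so r is a description only. CIDEB was most like HSD17B6 (0.963), HAO2 (0.962) and FABP1 (0.958), and CIDEC was most like AOX1 (0.971), ST5 (0.961) and TDO2 (0.959). PLIN2 was most like ACSL1 (0.776), P4HA1 (0.766) and ACSL4 (0.764), and PLIN4 was most like CREB3L3 (0.825), SH3BP2 (0.811) and SH3TC1 (0.805). For PLIN5 the nearest were SERINC5 (0.779), TBC1D9B (0.778) and TEX37 (0.773), and for PLIN3 TRAM2 (0.716), GLYR1 (0.714) and SLC2A13 (0.709). DGAT1 lay nearest to MBIP (0.828), CT45A6 (0.78) and ACSS2 (0.772), and DGAT2 to CPNE3 (0.795), RPL7A (0.778) and SLC50A1 (0.758). Among the genes described here, r was highest for CIDEB with CIDEC (0.725) and lowest for CIDEC with PLIN3 (-0.325).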

How the data were processed

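TempO-Seq, a targeted assay that counts ligated detector oligos, was run on lysates of differentiated HepaRG cells in 118 libraries. The values are raw counts per probe that the authors deposited as 1 table. The submitters' processing notes name bcl2fastq 2.20.422, fastp 0.23.2, STAR 2.7.10b and DESeq2 1.38.0, and the genome build is not given in the sources used here. Of 22069 rows, 22068 were used, 1 with missing values being left out, and 0 columns lacked a sample. A probe reads a short stretch, so transcripts that lack it are not counted.

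Each chemical was fitted by itself in edgeR 4.0.16 (R 4.3.3) with filterByExpr, TMM scaling and the quasi-likelihood test, and Benjamini-Hochberg adjustment over all its features. Printed levels are CPM with TMM over all 118 libraries. A call needed an adjusted p under 0.05 and a fold of at least 1.5. The SE of a log2 change was its size divided by the square root of F. Totals between 1061359 and 5250260 counts limit the precision of low probes, and counting intervals are exact at 95%. DESeq2 1.42.0, other scalings, no filter, summed probes, a rank slope, batch blocks and left-out replicates were alternatives, and the comparison within 1 plate and the fits without scriptaid C4 or mocetinostat C2 replicate 3 were added after seeing the data. The scripts were tested on simulated data.

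By the labels, replicate numbers are HepaRG batches and so pair the libraries. After subtracting group means, the median correlation between libraries was 0.0306 over 232 pairs of the same batch and -0.0132 over 464 pairs of different batches.

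The genes and lists were chosen with earlier results of these data known. From each list around triglyceride turnover, up to 4 genes called in the same direction in the most chemicals are named, with MLXIPL and ACSL4 added as ties, and for each gene the 3 features most like it in pattern. Promoter sequences are RefSeq's (GRCh38.p14).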

Additional observations from a re-analysis of the deposited data

Results flagged for a closer look

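The change from C1 to C5 differed between chemicals for 4 genes by the test of the difference itself, with adjusted p of 1.062e-29 for CIDEC, 7.635e-21 for PLIN2, 4.443e-10 for PLIN4 and 5.238e-09 for CIDEB. In valproic acid against the mean of the other 7 chemicals, the log2 change was more positive by 3.07 for CIDEC, 1.56 for PLIN2 and 3.98 for PLIN4. CIDEC itself did not change in valproic acid by a called amount (0.07 at C5). The high C1 level of PLIN2 and CIDEC in mocetinostat enters these differences, and its part was not tested. No test for an outlying value within a group was run, since groups held 3 or fewer libraries.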

How the results depend on the processing

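The number of lipid droplet genes called stayed within 1.5 times its value in 196 of the 203 comparisons with an alternative. By trend, leaving out 1 replicate at a time gave between 1 and 3 genes in panobinostat (3 with all), between 1 and 2 in scriptaid (2 with all) and between 3 and 4 in vorinostat (5 with all). At C5 in trichostatin A it gave between 0 and 2 (0 with all), the 2 coming without replicate 3 or without C1 replicate 3 alone. With the HepaRG batch as a replicate block no count of genes moved by over 1.5 times. The block added calls of PLIN4 in valproic acid at C5 (1.145) and by trend (0.906) and of PLIN5 in vorinostat at C5 (-2.0) and ended that of PLIN5 in apicidin for C4 and C5 combined, and DGAT2 passed the test among the 8 chemicals with it (adjusted p = 0.0489 by edgeR). It changed no other call by trend or at C5. Small changes in valproic acid turned sign without 1 replicate, and none of them was called. For C4 and C5 combined these ran from -0.099 to 0.265 for CIDEC, -0.434 to 0.095 for DGAT2, -0.314 to 0.096 for PLIN3 (0.01 without replicate 1) and -0.006 to 0.237 for PLIN5. By trend they ran from -0.09 to 0.224 for CIDEC (-0.034 without replicate 3), -0.39 to 0.099 for DGAT2, -0.259 to 0.018 for PLIN3 and -0.019 to 0.398 for PLIN5. The cause was not tested. Over all pairings of a called change with an alternative, the call was lost in 80, and 72 of these left out libraries. Depth limits CIDEB and PLIN4 at high concentrations, where few counts remained, and PLIN1 and PNPLA2 throughout.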
